A study of Mus musculus with 6 samples.

Results

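The mRNAs of the nuclear genes that encode subunits of oxidative phosphorylation were measured by RNA-seq in 3 mouse embryonic fibroblast (MEF) lines. Members were chosen by gene symbol, as the subunits of the 4 respiratory chain complexes and of ATP synthase, with pseudogenes left out and with at least 60 counts summed over the 6 libraries. Of 27179 genes in the count tables, 92 had a symbol of this kind, 5 of them were pseudogenes and 6 fell under the count limit, which left 81 members. Complex I had 37 of them, complex II 4, complex III 9 with Cyc1, complex IV 14 with Ndufa4 and Ndufa4l2, and complex V (ATP synthase) 17. The member nearest the limit was Ndufa4l2 with 134 counts, and the nearest gene outside it was Cox7a1 with 56.

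All 3 lines carried the genotype Cry1-/-, Cry2-/-, Per1-/-, Per2-/-, Nr1d1-/-, Nr1d2-/-, so that the controls, called CPN-/-, lacked these 6 clock repressors too. CPN-/- CRY1 and CPN-/- CRY2 were made from CPN-/- with a retrovirus that carried mouse Cry1 or Cry2 under a viral promoter, and each was grown from a single colony selected with blasticidin. Cells were untreated and grown with 10% serum at 37°C and 5% CO2, and each line had 2 libraries from separate RNA preparations, with 25957409 to 36106949 counts each. p-values therefore measure the spread between RNA preparations of 1 clone, and the clone cannot be told apart from the introduced CRY protein. Cry1 was at 125 and 115 CPM (counts scaled to library size) in CPN-/-, at 165 and 190 in CPN-/- CRY1 and at 51.0 and 48.3 in CPN-/- CRY2. Cry2 was at 136 and 129 CPM in CPN-/-, at 50.7 and 51.7 in CPN-/- CRY1 and at 349 and 351 in CPN-/- CRY2. Each introduced gene was highest in the line named for it, and both mutant mRNAs were still counted in the knockout line. Fibroblast markers summed to between 12733 and 20133 CPM per library, although Thy1 stayed under 1 CPM, and the markers of leukocytes, endothelium, epithelium and muscle summed to at most 2.15, 0.918, 0.294 and 2.31 CPM. Of 9 tested fibroblast markers, 1 was lower (Pdgfra, log2 fold change -1.31) and 2 were higher (Pdgfrb 0.88, Sparc 0.59) in CPN-/- CRY1 than in CPN-/-. This was by the test used for the members, where 13.1% of all tested genes were lower and 11.2% higher. In CPN-/- CRY2 0 passed, where 4.08% were lower and 2.58% higher. With the trend on transcript length removed, as described below, 4 were lower and 3 higher in CPN-/- CRY1, where 20.9% and 19.7% of all tested genes were called. In CPN-/- CRY2 0 were then lower and 6 higher, where 9.36% and 8.9% were called.

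In the inner mitochondrial membrane, complex I takes electrons from NADH and complex II takes them from succinate. Both pass them through ubiquinone to complex III and through cytochrome c to complex IV, which reduces oxygen. Complexes I, III and IV pump protons, and ATP synthase uses the return of the protons to make ATP. A few subunits of these machines are encoded by mitochondrial DNA and the rest, including all of complex II, by the nuclear genes described here. CRY1 and CRY2 repress transcription driven by CLOCK and BMAL1, which bind E-box sequences. The study asked how each CRY protein changes metabolic gene expression when PER and NR1D proteins are absent.

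The 2 CPN-/- libraries differed in nearly every subunit mRNA. Members took 1.24% of all counts in CPN-/- rep 1 and 1.64% in CPN-/- rep 2. Their share was 1.16% and 1.10% for CPN-/- CRY1, and it was 1.18% and 1.27% for CPN-/- CRY2. CPN-/- rep 2 thus stood above the 5 other libraries, which lay close together. It held the highest value of 78 of the 81 members, and 80 of the 81 were higher there than in CPN-/- rep 1, by a median of 0.52 on the log2 scale. The difference ran along transcript length in all genes: over 13242 tested genes with a known length, rep 1 minus rep 2 had a Spearman correlation of 0.66 with length in CPN-/-, -0.18 in CPN-/- CRY1 and 0.28 in CPN-/- CRY2. Members were short, with a median length of 787 bases against 2953 for all tested genes, and 78 of the 80 members with a known length lay among genes shorter than that. Each comparison with CPN-/- is therefore given with and without each CPN-/- library, and with the length trend removed.

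**Figure D1:**
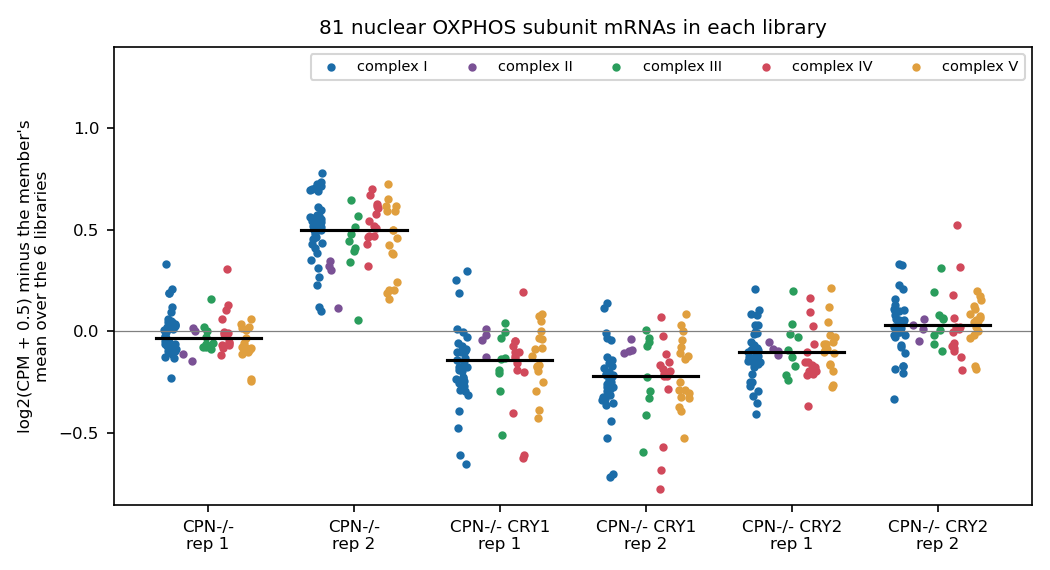
Each point is 1 of the 81 members, as its log2(CPM + 0.5) minus its own mean over the 6 libraries (y axis), in each library (x axis), coloured by complex, with the median as a black bar. Most points of CPN-/- rep 2 lie above 0, with 78 members at their highest there.

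CPN-/- CRY1 had less mRNA of a minority of the subunits than CPN-/-. In the edgeR quasi-likelihood fit over all 6 libraries, with adjustment over 14069 tested genes, 17 of the 81 members (21%) were lower at an adjusted p under 0.05 and 0 were higher. Of all tested genes, 13.1% were lower and 11.2% were higher. The log2 fold change was under 0 in 78 of the 81, called or not, and in 60 of 81 both CPN-/- CRY1 libraries lay below both CPN-/- libraries. No member had both above, while of all tested genes 34% had both below and 32.9% both above. The median over the members was -0.46 on the log2 scale (1.37-fold lower), against -0.01 over all tested genes. By complex, 10 of 37 members passed in complex I (median -0.48), 0 of 4 in complex II (median -0.17), 1 of 9 in complex III (median -0.47), 3 of 14 in complex IV (median -0.45) and 3 of 17 in complex V (median -0.34). These complex medians are as counted, and those with the length trend removed are given below.

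The size of this difference depended on the CPN-/- library used as control. Without CPN-/- rep 1, 74 of 81 members (91.4%) were lower with a median of -0.69, where 31.3% of all tested genes were lower. Without CPN-/- rep 2, 28 were lower and 3 higher (34.6% and 3.7%) with a median of -0.12, where 22.2% of all tested genes were lower and 22% higher. The 17 members called with all libraries were among those called lower in both of these fits. DESeq2 called 27 lower, the 17 among them, where 12.1% of its tested genes were lower and 11.8% higher. With the 4 libraries of the 2 lines alone, 6 of the 17 were left, where 7.31% of all tested genes were lower and 5.58% higher. Without CPN-/- CRY1 rep 1 the fit called 1 member lower, where 2.86% of all tested genes were lower and 1.87% higher. Without CPN-/- CRY1 rep 2 it called 0, where 2.62% and 2.01% of all tested genes were called.

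No subunit passed the test in CPN-/- CRY2 against CPN-/-. By edgeR, 0 of 81 members were lower and 0 higher, where 4.08% of all tested genes were lower and 2.58% higher, and 14 members had an unadjusted p under 0.05. By DESeq2, 2 members were lower, where 4.51% of its tested genes were lower and 4.08% higher. With the 4 libraries of the 2 lines alone, 0 members passed, where 2.36% and 1.06% of all tested genes did. In 26 of 81 members both CPN-/- CRY2 libraries lay below both CPN-/- libraries, near the 27.2% of all tested genes that did, and no member had both above, where 28% of all tested genes did. The members' median was -0.30 (1.23-fold lower), with complex medians between -0.39 (complex IV) and -0.13 (complex II). The controls are the same 2 CPN-/- libraries as for CPN-/- CRY1. Without CPN-/- rep 1, 74 members were lower with a median of -0.55, where 28% of all tested genes were lower. Without CPN-/- rep 2, 4 were lower and 1 higher with a median of 0.02, where 10.9% and 11.2% of all tested genes were called. The sign of the median thus depended on which CPN-/- library served as control.

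**Figure D2:**
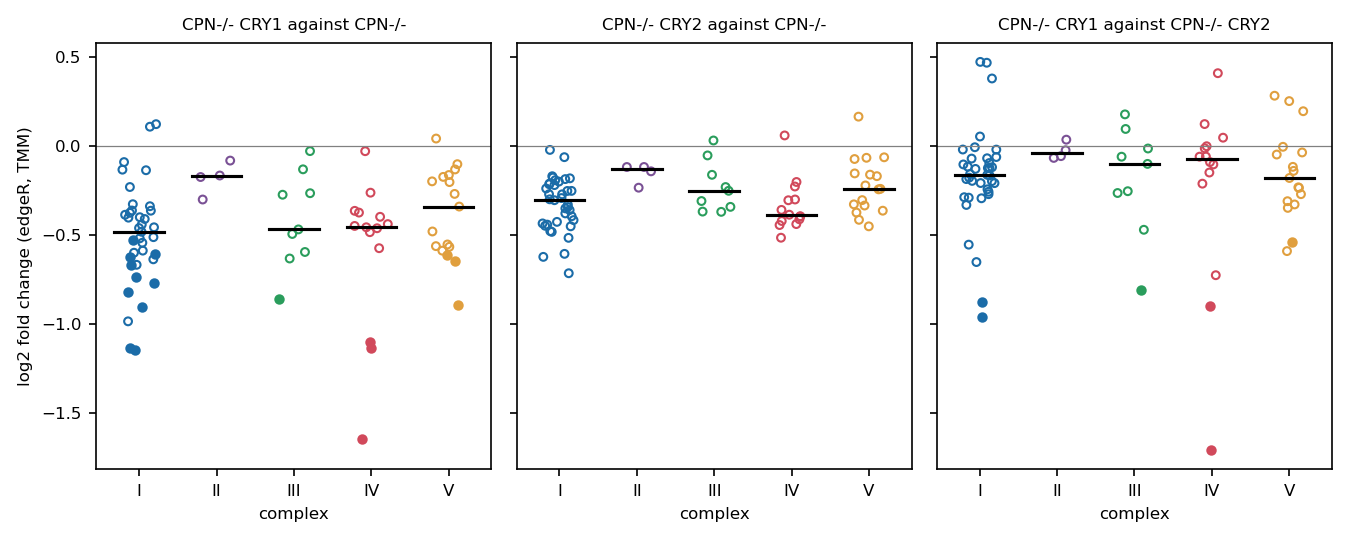
Log2 fold change of each member (y axis) by complex (x axis) in the 3 comparisons, with filled points for members past an adjusted p of 0.05 and black bars at complex medians. Filled points number 17 in the left panel, 0 in the middle and 6 in the right, all below 0.

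In complex I, the largest called differences in CPN-/- CRY1 were those of Ndufa6, Ndufb9 and Ndufc1, accessory subunits that surround the catalytic core. Ndufa6 was at 66.2 and 96.3 CPM in CPN-/-, at 37.9 and 35.5 in CPN-/- CRY1 and at 61.7 and 72.9 in CPN-/- CRY2. Both CPN-/- CRY1 libraries lay below the other 4, and CPN-/- and CPN-/- CRY2 overlapped. Its log2 fold change in CPN-/- CRY1 against CPN-/- was -1.15 ± 0.19 (SE, edgeR adjusted p = 0.00744). Ndufb9 was at 140 and 211 CPM in CPN-/-, at 81.7 and 78.0 in CPN-/- CRY1 and at 149 and 162 in CPN-/- CRY2, with the same order of the lines. Its log2 fold change was -1.14 ± 0.19 (edgeR adjusted p = 0.00784). Ndufc1, a small membrane arm subunit, was at 53.2 and 84.9 CPM in CPN-/- and 37.5 and 36.2 in CPN-/- CRY1, with a log2 fold change of -0.90 ± 0.21 (edgeR adjusted p = 0.0227). Again both CPN-/- CRY1 libraries were the lowest.

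The other 7 called members of complex I were Ndufa5, Ndufa7, Ndufa12, Ndufb3, Ndufb5, Ndufs6 and Ndufv3, with log2 fold changes between -0.82 and -0.53.

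In complex II, which also serves the citric acid cycle, 0 of the 4 subunits passed in either comparison with CPN-/-. Their log2 fold changes lay between -0.30 and -0.08 for CPN-/- CRY1. For CPN-/- CRY2 they lay between -0.23 and -0.12. Sdha, the flavoprotein, was at 187 and 200 CPM in CPN-/-, at 186 and 180 in CPN-/- CRY1 and at 178 and 179 in CPN-/- CRY2. Sdhb, the iron-sulfur subunit, was at 127 and 170 CPM in CPN-/-, and between 128 and 140 in the 4 other libraries. The membrane anchors Sdhc and Sdhd likewise had their highest value in CPN-/- rep 2, at 155 and 180 CPM.

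Complex III had 1 called member, Cyc1, which carries the cytochrome c1 heme. Cyc1 was at 271 and 330 CPM in CPN-/-, at 170 and 161 in CPN-/- CRY1 and at 279 and 301 in CPN-/- CRY2. Both CPN-/- CRY1 libraries lay well below the others, while CPN-/- CRY2 lay within the CPN-/- range. The log2 fold change in CPN-/- CRY1 was -0.86 ± 0.12 (edgeR adjusted p = 0.00479), the lowest adjusted p of any member. The structural core proteins did not pass: Uqcrc1 was at 213 and 283 CPM in CPN-/- and 208 and 203 in CPN-/- CRY1, and Uqcrc2 at 167 and 181 CPM against 173 and 167.

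Complex IV held the largest fold change of all members, in the gene with the fewest counts. Ndufa4l2, the paralogue of Ndufa4 that is known as a hypoxia-induced gene, had 26 and 31 counts in CPN-/-, only 11 and 10 in CPN-/- CRY1 but 22 and 34 in CPN-/- CRY2. This made 0.817 and 1.19 CPM, 0.304 and 0.324 CPM, and 0.808 and 1.26 CPM, with both CPN-/- CRY1 libraries lowest. Its log2 fold change in CPN-/- CRY1 was -1.65 ± 0.38 (edgeR adjusted p = 0.0232). Its exons overlap Shmt2 on the opposite strand over 32 bases. Ndufa4 itself was at 183 and 263 CPM in CPN-/-, and between 163 and 199 in the 4 other libraries, and did not pass.

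Cox6a2, the isoform of subunit 6a known from heart and skeletal muscle, was at 10.8 and 14.1 CPM in CPN-/-, at 6.42 and 4.83 in CPN-/- CRY1 and at 8.82 and 9.86 in CPN-/- CRY2. The lines did not overlap, with CPN-/- CRY1 lowest. Its log2 fold change in CPN-/- CRY1 was -1.14 ± 0.19 (edgeR adjusted p = 0.0088), and its exons overlap Itgad on the opposite strand over 70 bases. Its widely expressed partner Cox6a1 was at 224 and 339 CPM in CPN-/-, and between 196 and 218 in the 4 other libraries, and did not pass. Cox6c was at 184 and 274 CPM in CPN-/-, at 109 and 104 in CPN-/- CRY1 and at 188 and 210 in CPN-/- CRY2. CPN-/- CRY1 was the lowest line and the other lines overlapped. Its log2 fold change in CPN-/- CRY1 was -1.10 ± 0.18 (edgeR adjusted p = 0.00802), and 2 nearly identical sequences elsewhere could share its reads.

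The MEF lines used the widely expressed isoform of each complex IV family. Cox4i2, Cox6b2 and Cox8b had 1 count each over all libraries, Cox8c had 0, Cox7b2 had 7 and Cox7a1 had 56. Their partners Cox4i1, Cox6b1, Cox8a, Cox7b and Cox7a2 were between 80.2 and 576 CPM in every library. Per kilobase of transcript, the mean in CPN-/- was 604 CPM for Cox4i1, 502 for Cox8a, 493 for Cox6a1 and 18.3 for Cox6a2, and Ndufa4 stood at 365 against 1.07 for Ndufa4l2. None of these widely expressed isoforms passed in CPN-/- CRY1 or CPN-/- CRY2 before the length trend was removed.

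In ATP synthase, the called members belonged to the peripheral stalk and the membrane part. Atp5pb, a subunit of the peripheral stalk, was at 256 and 321 CPM in CPN-/-, at 187 and 190 in CPN-/- CRY1 and at 266 and 282 in CPN-/- CRY2. CPN-/- CRY1 was again lowest, and CPN-/- CRY2 lay within the CPN-/- range. Its log2 fold change in CPN-/- CRY1 was -0.61 ± 0.13 (edgeR adjusted p = 0.0163), and its exons overlap Wdr77 on the opposite strand over 337 bases. Atp5h, another stalk subunit, was at 82.7 and 135 CPM in CPN-/- and 60.6 and 56.7 in CPN-/- CRY1, with a log2 fold change of -0.89 ± 0.22 (edgeR adjusted p = 0.0268). Atp5mpl, a small membrane protein of the complex, was at 71.1 and 108 CPM in CPN-/- and 57.2 and 57.3 in CPN-/- CRY1, with a log2 fold change of -0.64 ± 0.19 (edgeR adjusted p = 0.0488). In both genes the libraries of the 2 lines did not overlap.

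The F1 part of ATP synthase holds its catalytic subunits. Of the 5 subunits of F1, 0 passed in CPN-/- CRY1 (median -0.20), against 3 of the 12 others, all lower (median -0.41). Of all tested genes, 13.1% were lower and 11.2% higher. With the length trend removed, 1 of 5 was lower, Atp5d at -0.29, and of the 12 others 3 were lower and 1 higher. Of all tested genes, 20.9% were lower and 19.7% higher in that setting. Counts this small cannot be told apart from those shares. The transcripts of F1 were longer, with a median of 1735 bases against 727. This grouping and Atp5d were chosen after the values were seen. Among the F1 subunits Atp5b, the catalytic subunit and the most abundant member per kilobase, was at 2959 and 3482 CPM in CPN-/-. It was at 2851 and 2747 in CPN-/- CRY1 and at 2986 and 3180 in CPN-/- CRY2. The 3 genes for the rotating c-subunit, whose mature protein is the same, did not pass either. Atp5g3 had the largest share of them with 220 and 302 CPM in CPN-/-, and 215 to 232 in the 4 other libraries. Atp5g1 was between 27.4 and 54.7 CPM and Atp5g2 between 2.40 and 3.68 CPM over all libraries. For Atp5g2, with 2 nearly identical sequences, and Atp5l, with 9, counts may be shared with copies and their levels are uncertain. The same holds for Cox7c, with 3 copies. In all, 25 members had such a copy. Of these 6 were called lower in CPN-/- CRY1, against 11 of the 55 members with a known length and no copy.

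**Figure D3:**
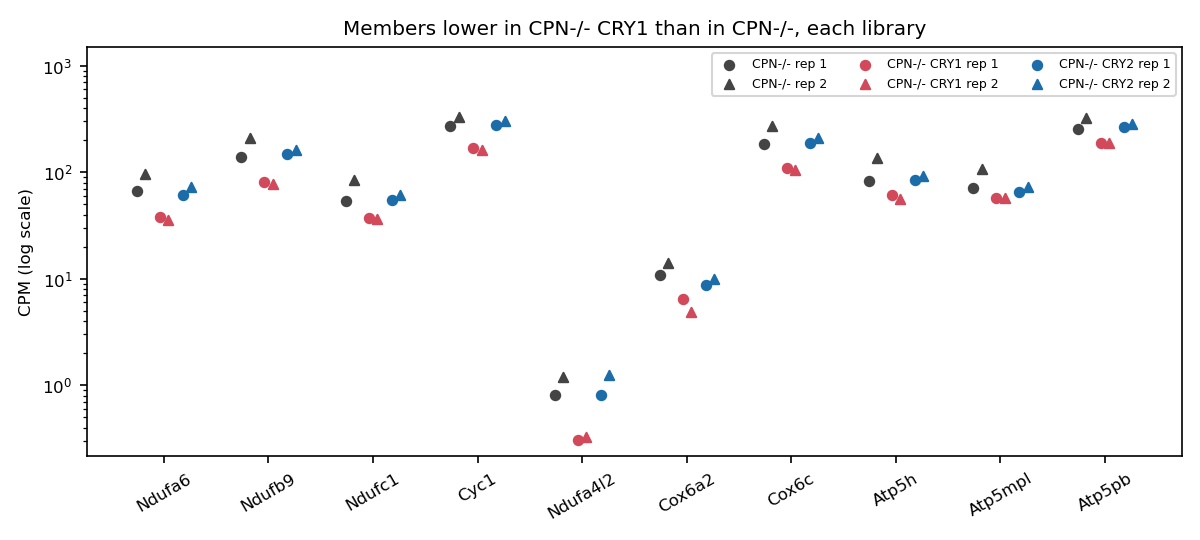
CPM on a log scale (y axis) of the 10 members with the largest called differences per complex in CPN-/- CRY1 against CPN-/- (x axis), with 1 point per library (circles rep 1, triangles rep 2). Both red CPN-/- CRY1 points lie below all black CPN-/- points, from 0.304 CPM for Ndufa4l2 to 190 CPM for Atp5pb.

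The fold changes against CPN-/- moved with transcript length. Over the tested genes, the median log2 fold change in CPN-/- CRY1 went from -0.31 in the shortest decile of transcripts to 0.33 in the longest, and in CPN-/- CRY2 from -0.21 to 0.32. The 55 members in the shortest decile had medians of -0.48 and -0.30, below the -0.31 and -0.21 of all genes of that length. With a loess trend on length removed from each library, 27 of 80 members (33.8%) were lower and 4 (5%) higher in CPN-/- CRY1, with a median of -0.16. Of all tested genes, 20.9% were then lower and 19.7% higher. By complex, the medians were then -0.19 (complex I), -0.08 (complex II), -0.16 (complex III), -0.14 (complex IV) and -0.12 (complex V), closer together than as counted. All 17 members called before were among the 27. In CPN-/- CRY2, 8 of 80 (10%) were lower and 0 higher, with a median of -0.10, where 9.36% of all tested genes were lower and 8.9% higher. The share in CPN-/- CRY2 was thus near that of all genes. The 8 were Ndufa3, Ndufa7, Ndufs6, Ndufv2, Ndufv3, Cox6b1, Cox8a and Atp5md. Across the 80 members, the correlation (Spearman) of fold change in CPN-/- CRY1 with length was 0.39 before and 0.09 after removal.

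**Figure D4:**
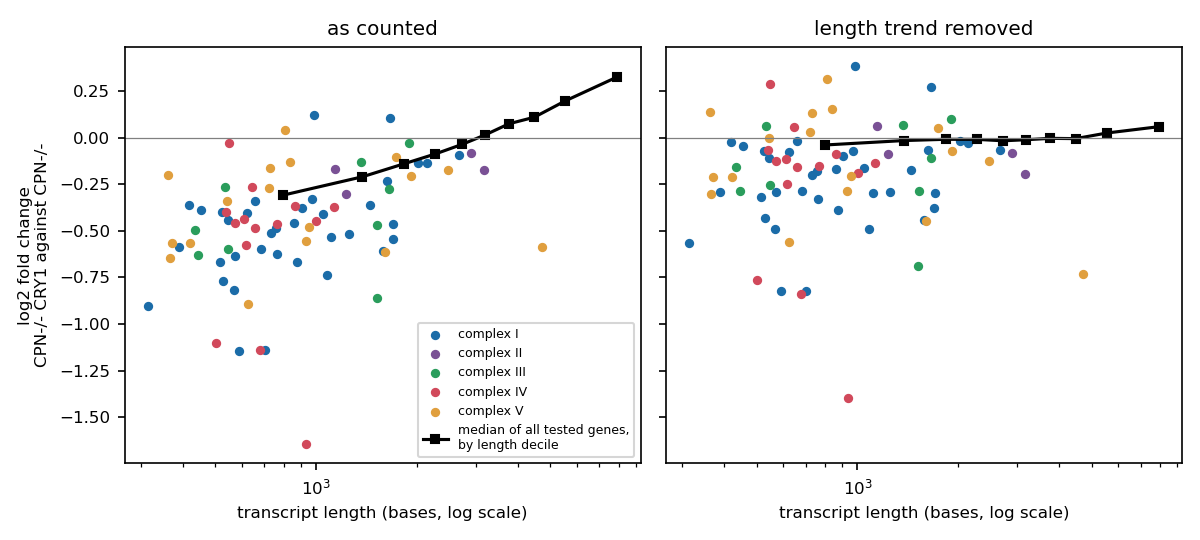
Log2 fold change in CPN-/- CRY1 against CPN-/- (y axis) by transcript length on a log scale (x axis), for 80 members by complex (points) and as the median of all tested genes in deciles of length (black squares at the median length of each decile). The black line runs from -0.31 to 0.33 as counted and stays near 0 once the length trend is removed, where most members still lie below it.

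The direct comparison of the 2 CRY lines did not use the CPN-/- libraries for its fold changes. It also tests whether the 2 lines differ from CPN-/- to unlike degrees, since both refer to the same controls. In CPN-/- CRY1 against CPN-/- CRY2, 6 of 81 members (7.41%) were lower and 0 higher, where 8.57% of all tested genes were lower and 7.72% higher. The members' share was near that of all genes, and the members' median was -0.12. The 6 were Ndufa4l2 (log2 fold change -1.71 ± 0.38, edgeR adjusted p = 0.0264), Ndufb9 (-0.96 ± 0.19), Cox6c (-0.90 ± 0.18), Ndufa6 (-0.88 ± 0.19), Cyc1 (-0.81 ± 0.12) and Atp5pb (-0.54 ± 0.13). For the last 5, edgeR adjusted p lay between 0.00731 for Cyc1 and 0.0308 for Atp5pb. All 6 had also passed against CPN-/-. The wide CPN-/- pair enters the spread of this fit: with only the 4 CRY libraries, 33 members (40.7%) were lower and 8 (9.88%) higher, where 24.5% of all tested genes were lower and 25.2% higher. With the length trend removed, 13 of 80 were lower and 8 higher, where 17.6% and 17% of all tested genes were called. DESeq2 called 10 lower and 1 higher, where 8.44% and 8.14% of its tested genes were called. Both CPN-/- CRY1 libraries lay below both CPN-/- CRY2 libraries in 43 members and above them in 10, where 36.9% of all tested genes lay below and 36.4% above. Without any 1 of the 4 CRY libraries, 0 members passed. For CPN-/- CRY1 rep 1 the share of all tested genes was then 1.66% in each direction, and for CPN-/- CRY1 rep 2 it was 1.55% lower and 1.83% higher.

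The fold changes in CPN-/- CRY1 went with the chromosome of the gene. Among tested genes other than members, the median in CPN-/- CRY1 against CPN-/- CRY2 was -0.43 on chromosome 15 (524 genes), -0.40 on chromosome 3 (635 genes), 0.35 on chromosome 16 (417 genes) and 0.46 on chromosome 19 (467 genes). On all 4 together 38.9% of the other genes passed the test in either direction, against 12.5% elsewhere. These 4 had the medians furthest from 0 in these same data, so a larger share there follows from their choice. Of the 6 called members, Cox6c (chr15:35931976-35938246), Ndufb9 (chr15:58933801-58939516), Cyc1 (chr15:76343513-76346260) and Ndufa6 (chr15:82350139-82354291) lie on chromosome 15 and Atp5pb (chr3:105942698-105959263) on chromosome 3. Ndufa4l2 (chr10:127509274-127517154) was the only called member elsewhere, on a chromosome with a median of -0.16. These positions are of build GRCm38. The called chromosome 15 members fell below the chromosome's median, while Ndufb4c and Atp5g2 on the same chromosome did not pass. Ndufb4c had only 44 to 88 counts per library and Atp5g2 74 to 110. Both have nearly identical copies elsewhere, so their values are uncertain.

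The same chromosomes held the members that went up. With the length trend removed, the 4 members higher in CPN-/- CRY1 than in CPN-/- were Ndufs8, Ndufv1 and Cox8a on chromosome 19 and Atp5j on chromosome 16, with log2 fold changes between 0.27 and 0.39. Ndufs8, an iron-sulfur core subunit, was at 74.0 and 111 CPM in CPN-/-, at 107 and 94.4 in CPN-/- CRY1 and at 69.7 and 75.4 in CPN-/- CRY2. The CPN-/- and CPN-/- CRY1 libraries overlapped, and CPN-/- CRY1 lay above CPN-/- CRY2. Cox8a was at 243 and 309 CPM in CPN-/-, at 282 and 259 in CPN-/- CRY1 and at 191 and 217 in CPN-/- CRY2, with the same order. On these 4 chromosomes, 7 of 18 members were lower in CPN-/- CRY1 than in CPN-/-, where 40% of the other genes there passed in either direction. On the other chromosomes, 10 of 63 members were lower in CPN-/- CRY1 than in CPN-/- (median -0.46), where 21.7% of the other genes there passed in either direction. Against CPN-/- CRY2, 1 of 63 was lower and 0 higher, where 12.5% of the other genes passed in either direction. With the length trend removed, 20 of 63 were lower and 0 higher than in CPN-/- (median -0.16). There 37.2% of the other genes passed in either direction, and over all chromosomes 20.9% of tested genes were lower and 19.7% higher. In the same setting 6 of 63 were lower and 2 higher than in CPN-/- CRY2, where 28.9% of the other genes passed in either direction. Chromosome copy number was not measured, and its part in these values was not tested.

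**Figure D5:**
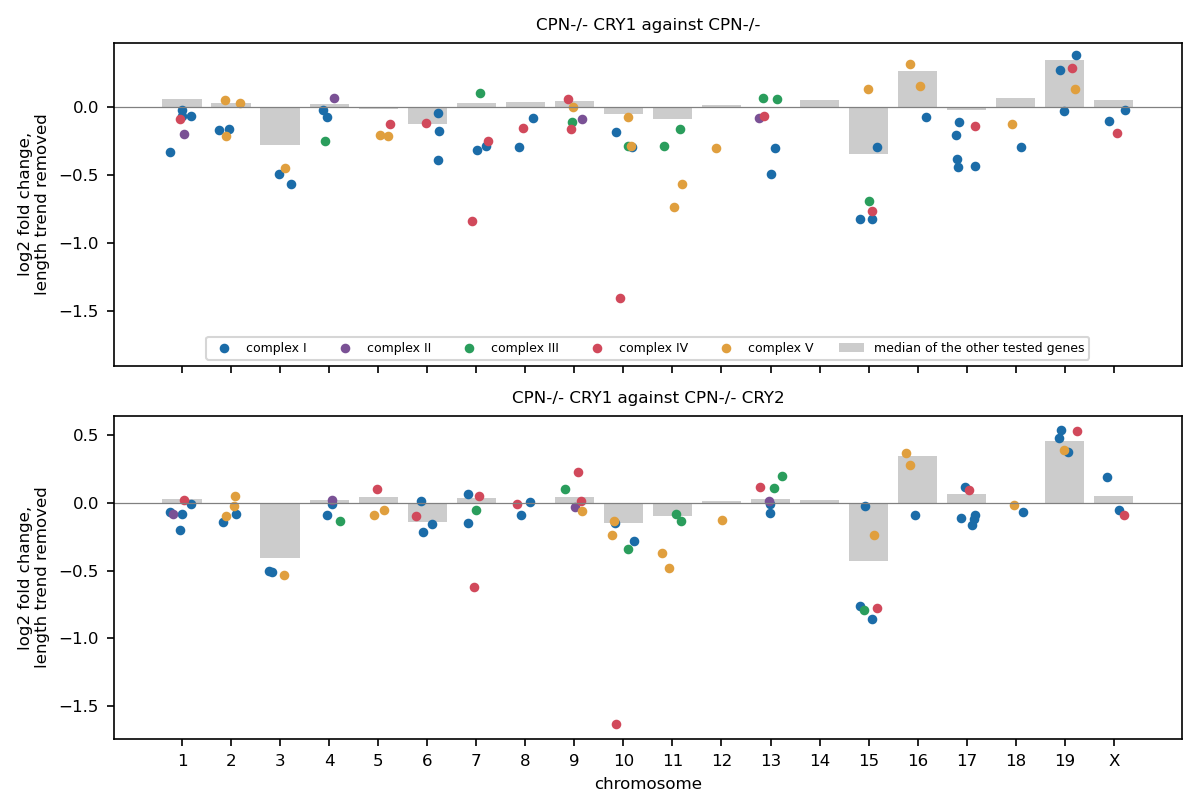
Log2 fold change with the length trend removed (y axis) of each member (points, by complex) and the median of the other tested genes (grey bars) on each chromosome (x axis), for CPN-/- CRY1 against CPN-/- (top) and against CPN-/- CRY2 (bottom). Bars are lowest on chromosomes 3 and 15 and highest on 16 and 19, and the members on those chromosomes mostly lie on the same side of 0.

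Promoter windows (250 bases before to 50 after the start, RefSeq, GRCm38.p6) were found for 65 of the 81 members and searched on both strands for 5 short motifs. The E-box CACGTG, read by CLOCK and BMAL1, was in the windows of 6 members (9.23%) against 8.09% of all 27025 genes with a window. These were Atp5g1, Atp5g3, Atp5l, Atp5pb, Ndufa7 and Ndufv1. E-boxes outside the windows, such as those in first introns, were not searched, and binding of BMAL1 was not examined. Of the 6, 2 were lower in CPN-/- CRY1 than in CPN-/- (median -0.46), against 9 of the 59 members without it (median -0.44). Known elements of respiratory promoters were more common than in all genes: the NRF1 half-site TGCGCA in 27.7% against 8.79%, the ETS core CCGGAAG, bound by GABPA, in 26.2% against 9.93%, the YY1 core AAGATGG in 16.9% against 7.28% and the ERR half-site AAGGTCA in 12.3% against 5.38%. Of the 18 members with the NRF1 half-site 4 were lower in CPN-/- CRY1, against 7 of 47 without it. For the ETS core these were 1 of 17 and 10 of 48, for the YY1 core 3 of 11 and 8 of 54, and for the ERR half-site 0 of 8 and 11 of 57. Of all tested genes, 13.1% were lower in CPN-/- CRY1 than in CPN-/-.

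3 windows are printed 5′ to 3′, with the motif in capitals. Ndufa7 (chr17:33824322-33824621, plus strand) and Atp5pb (chr3:105959214-105959513, minus strand) are the 2 called members with an E-box, which begins 72 and 249 bases before the start. Ndufa7 has another annotated start, with a window at chr17:33824395-33824694 that is not printed, and the same E-box begins 145 bases before that start. Ndufa6 (chr15:82354242-82354541, minus strand) is the called member with the largest fold change among those with a window, and holds the NRF1 half-site in 2 places.
Ndufa7: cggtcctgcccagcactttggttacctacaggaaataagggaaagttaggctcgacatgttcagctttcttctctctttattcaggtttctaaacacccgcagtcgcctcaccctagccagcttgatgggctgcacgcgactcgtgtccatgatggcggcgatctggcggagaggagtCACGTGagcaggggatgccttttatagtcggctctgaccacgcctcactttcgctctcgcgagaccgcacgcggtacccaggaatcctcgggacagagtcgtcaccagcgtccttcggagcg
Atp5pb: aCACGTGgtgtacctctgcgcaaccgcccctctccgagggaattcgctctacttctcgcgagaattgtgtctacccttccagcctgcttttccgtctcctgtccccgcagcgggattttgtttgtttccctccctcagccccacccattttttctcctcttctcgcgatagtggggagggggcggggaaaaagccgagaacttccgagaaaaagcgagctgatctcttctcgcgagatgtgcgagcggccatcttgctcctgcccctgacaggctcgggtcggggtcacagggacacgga
Ndufa6: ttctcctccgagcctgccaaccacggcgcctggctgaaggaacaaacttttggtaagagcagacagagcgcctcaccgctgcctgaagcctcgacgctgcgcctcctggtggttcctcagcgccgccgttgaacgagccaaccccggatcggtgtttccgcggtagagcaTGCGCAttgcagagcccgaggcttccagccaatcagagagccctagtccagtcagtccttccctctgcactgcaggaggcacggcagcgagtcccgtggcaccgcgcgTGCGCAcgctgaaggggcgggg

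The other genes of the pathway were taken from lists of assembly factors, electron carriers, regulators and mitochondrial DNA genes. In CPN-/- CRY1 against CPN-/-, 5 of 48 tested assembly factors of the 5 complexes were lower and 1 higher, and 2 of 14 genes of the electron carriers ubiquinone and cytochrome c were lower and 0 higher. Of all tested genes 13.1% were lower and 11.2% higher. Higd1a, a hypoxia-induced factor of complex IV, was at 112 and 160 CPM in CPN-/-, at 46.3 and 48.1 in CPN-/- CRY1 and at 54.7 and 58.0 in CPN-/- CRY2. Both CRY lines lay below CPN-/- without overlap. Its log2 fold changes were -1.52 ± 0.17 (edgeR adjusted p = 0.00198) in CPN-/- CRY1 and -1.27 ± 0.17 (edgeR adjusted p = 0.00743) in CPN-/- CRY2. Coq2, which attaches the side chain of ubiquinone, was at 33.9 and 42.6 CPM in CPN-/-, at 19.6 and 18.2 in CPN-/- CRY1 and at 24.7 and 25.7 in CPN-/- CRY2. It was lower in both lines, with log2 fold changes of -1.01 ± 0.13 (edgeR adjusted p = 0.00378) and -0.60 ± 0.13 (edgeR adjusted p = 0.0468).

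The other assembly factors that passed in CPN-/- CRY1 were Nubpl (-0.82 ± 0.17) and Acad9 (-0.43 ± 0.09) of complex I, Sdhaf4 of complex II (-0.69 ± 0.19), and Cox14 (-0.92 ± 0.17) and Cox15 (0.54 ± 0.12) of complex IV. Coq9, for ubiquinone synthesis, was at -0.50 ± 0.12. Acad9, Cox14 and Cox15 lie on chromosomes 3, 15 and 19 and moved with the other genes there. In CPN-/- CRY2 against CPN-/-, Higd1a was the only one of the 48 assembly factors that passed. Of the electron carriers Coq2 and Coq10b (-0.49 ± 0.10) passed, both lower. In that comparison 4.08% of all tested genes were lower and 2.58% higher.

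Of 14 regulators of mitochondrial biogenesis, 4 were higher and 0 lower in CPN-/- CRY1 than in CPN-/- (median 0.32), where 11.2% of all tested genes were higher and 13.1% lower. The 4 were Pprc1 (0.72 ± 0.17), Gabpa (0.68 ± 0.12), Yy1 and Twnk. Once the length trend was removed, 4 were higher and 1 lower, where 19.7% of all tested genes were higher and 20.9% lower. The call of Yy1 was lost (edgeR adjusted p = 0.0623), Tfb2m became higher and Tfam lower (edgeR adjusted p = 0.0453). Gabpa, the DNA-binding subunit of an ETS factor, was at 136 and 111 CPM in CPN-/-, at 195 and 203 in CPN-/- CRY1 and at 140 and 132 in CPN-/- CRY2. CPN-/- CRY1 stood above all other libraries. Pprc1 and Twnk lie on chromosome 19 and Gabpa on chromosome 16, beside Atp5j, whose exons it overlaps on the opposite strand over 182 bases. In CPN-/- CRY2, 1 regulator was lower, the nuclear receptor Esrra (29.8 and 33.8 CPM in CPN-/-, 21.3 and 21.1 in CPN-/- CRY2, log2 fold change -0.59 ± 0.12, edgeR adjusted p = 0.0305). Esrra stood at 35.2 and 31.4 CPM in CPN-/- CRY1, overlapping CPN-/-. Of all tested genes, 4.08% were lower and 2.58% higher in CPN-/- CRY2 than in CPN-/-.

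The mitochondrial DNA genes took 2.16% to 2.71% of the counts. Of 12 tested, 1 was lower and 2 higher in CPN-/- CRY1 against CPN-/- (median -0.12), where 13.1% and 11.2% of all tested genes were called. In CPN-/- CRY2 0 passed (median 0.20), where 4.08% of all tested genes were lower and 2.58% higher. mt-Nd2 was at 3822 and 3036 CPM in CPN-/- and 1992 and 2419 in CPN-/- CRY1 (-0.64 ± 0.15, edgeR adjusted p = 0.027), and its call was lost with the length trend removed (edgeR adjusted p = 0.153). mt-Nd5 (0.50 ± 0.13) and mt-Nd6 (0.39 ± 0.11) were higher. After removal of the length trend 0 were lower and 3 higher, mt-Nd4l among them, where 20.9% and 19.7% of all tested genes were called. Over all libraries mt-Nd4l was only at 1.82 to 2.95 CPM, and mt-Co2, mt-Co3 and mt-Atp6 at 2.27 to 5.30. For mt-Co1 the range was 5253 to 7716 CPM. The levels and calls of the genes with so few counts are uncertain. Of 13 genes of the outer membrane and of protein import, 2 were lower in CPN-/- CRY1, Tomm22 (-0.64 ± 0.15, on chromosome 15) and Tomm20 (-0.42 ± 0.10), and 0 passed in CPN-/- CRY2. The shares of all tested genes are those just given for the 2 comparisons before removal of the length trend.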

How the data were processed

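The authors sequenced stranded mRNA libraries (paired-end), mapped them to mm10 with RNA STAR and counted reads per gene with featureCounts. The deposited values are whole counts per gene. The annotation, the strand setting and the treatment of reads with several matches are not given in the sources used here. The members and lists were chosen with earlier results of these data known.

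Counts were fitted with edgeR 4.0.16 in R 4.3.3 (TMM factors, filterByExpr, robust quasi-likelihood test, the line as only term, 6 libraries) and adjusted by Benjamini-Hochberg over all 14069 tested genes at 0.05. CPM used TMM library sizes. Transcript lengths were of the GENCODE transcript paired with RefSeq, known for 94.1% of tested genes, and the length trend was a loess (span 0.5) removed per library. Copies were BLAST matches of at least 95% over 150 bases. Named genes were up to 3 called members per complex and direction, the Sdh genes, Cyc1, the isoform families and up to 2 called genes per list and direction. With 2 libraries a line, exact permutation cannot pass the threshold. The fits were run on simulated counts with known changes before use. DESeq2 1.42.0 was an alternative. Depths were 25957409 to 36106949 counts, and counting error weighs most on Ndufa4l2, Ndufb4b and Ndufb4c, with 10 to 88 counts per library.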

Additional observations from a re-analysis of the deposited data

Results flagged for a closer look

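The 2 CRY lines, each also measured against the same CPN-/- libraries, differed by the direct edgeR test of CPN-/- CRY1 against CPN-/- CRY2 for 6 members. These were 7.41% of the 81 members, all lower, where 8.57% of all tested genes were lower and 7.72% higher. The members' share was thus near that of all genes. Each CRY line was grown from a single colony, so the CRY protein cannot be told apart from the clone. The log2 fold changes of these members were -1.71 for Ndufa4l2, -0.96 for Ndufb9, -0.90 for Cox6c, -0.88 for Ndufa6, -0.81 for Cyc1 and -0.54 for Atp5pb. The same test passed for 6 of the other named genes, with -0.76 for Cox14, -0.41 for Acad9, 0.54 for Cox15, 0.49 for Twnk, 0.55 for Gabpa and 0.65 for Esrra. Ndufa4l2 is the one among them that lies outside chromosomes 3, 15, 16 and 19. The part of the chromosomes in the others was not tested.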

How the results depend on the processing

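For CPN-/- CRY1 against CPN-/-, where 17 members were lower and 0 higher, 27 were lower with the length trend removed and with DESeq2, 6 with the 4 libraries of the comparison, 5 at an adjusted p under 0.01, 5 at 1 or more on the log2 scale, 10 without the members on chromosomes 3, 15, 16 and 19, and 11 without members that have a copy. With the length trend, or length and GC, removed, 4 were higher. For CPN-/- CRY2 against CPN-/-, where 0 passed, 1 was lower without a filter, 8 with the length trend removed, 5 with length and GC removed and 2 with DESeq2. For CPN-/- CRY1 against CPN-/- CRY2, where 6 were lower and 0 higher, 13 were lower and 8 higher with the length trend removed, 14 and 8 with length and GC removed, 33 and 8 with the 4 CRY libraries, and 10 and 1 with DESeq2. In this comparison 1 was lower at an adjusted p under 0.01, 1 at 1 or more on the log2 scale and 1 without those chromosomes, and 1 was higher without a filter. The cause of these shifts was not tested, apart from the stricter limits and smaller sets of members. Shares of all tested genes are not given for the stricter limits, the fit without a filter and the removal of length and GC. Those counts are therefore no result about the members alone.

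Leaving out each library in turn, also together with the length trend for the CPN-/- libraries (chosen after seeing the data), gave 0 to 74 lower and 0 to 7 higher members in CPN-/- CRY1 against CPN-/-, with medians from -0.69 to -0.051. It gave 0 to 74 lower and 0 to 1 higher in CPN-/- CRY2 against CPN-/-, and 0 to 33 lower and 0 to 12 higher in CPN-/- CRY1 against CPN-/- CRY2. For CPN-/- CRY1 against CPN-/-, 1 was lower without CPN-/- CRY1 rep 1, 0 without CPN-/- CRY1 rep 2, and 6 without either library of CPN-/- CRY2. A line left with 1 library is assumed to vary like the others. The share of all tested genes called also changed with the library left out, in the fits where it is given above. Those fits left out a CPN-/- library in the comparisons with CPN-/-, or a CPN-/- CRY1 library in the comparisons of that line. For the other fits the share is not given, so their member counts are no result about the members alone. Over the 40 called results named, 620 alternatives kept the call, 220 kept the direction only and 0 changed it.

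The replicate numbers did not pair the samples: the correlations of the replicate differences between lines were -0.08, 0.14 and -0.03. With the replicate block, 22 members were lower in CPN-/- CRY1 and 0 in CPN-/- CRY2 against CPN-/-, and 8 were lower in CPN-/- CRY1 against CPN-/- CRY2. Of all 14069 tested genes, 1807, 561 and 1165 were lower in these comparisons and 1651, 416 and 1023 higher. With the block and the length trend removed, the member counts were 27 lower and 4 higher, 8 lower, and 13 lower and 8 higher. The share of all tested genes is not given for that setting.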
